A study of Mus musculus with 24 samples.

Results

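The genes described here carry glucose carbon through glycolysis, the handling of pyruvate and the citrate cycle. They were chosen by name from a list of 36 genes, of which 34 were matched by symbol among the 16940 genes of the deposited mouse table. Slc2a3 and Hk1 were not analysed here, and Aldoa was left out of the list because the table gives it 2 sets of nFGO values. The 34 genes fall into 6 steps: glucose transport and hexokinase, upper glycolysis, lower glycolysis, lactate dehydrogenase, the pyruvate carrier with pyruvate dehydrogenase, and the citrate cycle.

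The study sequenced RNA of oocytes from B6/129 female mice. The KO group carried ZP3-Cre together with Snf2h(fl/fl), and the WT group carried Snf2h(fl/fl) without the Cre label. Both groups therefore shared the floxed allele, and an effect of Cre cannot be told apart from one of Snf2h loss. The Zp3 promoter is active in oocytes from the start of their growth, and Snf2h, encoded by Smarca5, is the ATPase of the ISWI chromatin remodellers. Oocytes came from 4 stages. GO1 oocytes were growing and measured 40 to 45 µm, and GO2 oocytes were growing and measured 50 to 55 µm. Oocytes of the nFGO and FGO stages were fully grown, with diameters above 70 µm, and came from females given no hormone (nFGO) or given hormone (FGO). There were 8 groups with 2 libraries in each, made from 20 oocytes apiece, and the labels do not say whether the libraries of a group came from separate animals. P-values then measure only the spread between these libraries, which may be technical. GEO's labels give polyA RNA for the 4 nFGO libraries and total RNA for the other 12, so hormone and preparation cannot be told apart between nFGO and FGO. Between GO2 and FGO, growth and hormone cannot be told apart.

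Glycolysis turns glucose into pyruvate, which lactate dehydrogenase exchanges with lactate, or which the mitochondrial pyruvate carrier and pyruvate dehydrogenase pass to the citrate cycle as acetyl-CoA. Mouse oocytes are known to use glucose poorly and to live on pyruvate, much of it supplied by the surrounding cumulus cells. Their lactate dehydrogenase is known to consist mainly of B subunits.

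RPKM totals ran from 832384 to 1011538 per library, and the read depth is not known here. Smarca5 lay between 0.701 and 2.06 RPKM in the 8 KO libraries and between 13.9 and 48.7 RPKM in the 8 WT libraries. The low WT value, 13.9 RPKM, belongs to WT FGO replicate 2, against 48.7 RPKM in WT FGO replicate 1, and each KO-WT call at FGO among the 34 genes is also given without that library. All 12 oocyte markers reached 1 RPKM in every library, and their sums were lower in KO in fully grown oocytes. The sums were 25259.9 and 32802 RPKM in KO GO1 and 35591 and 32339 RPKM in WT GO1 libraries, and 20031 and 21023 RPKM in KO GO2 and 21672 and 23417 RPKM in WT GO2 libraries. They were 12539 and 13486 RPKM in KO nFGO and 16588 and 17474 RPKM in WT nFGO libraries, and 12273 and 12603 RPKM in KO FGO and 13280.2 and 19601 RPKM in WT FGO libraries. In the limma fit described below, 4 of the 12 (Zp2, Zp3, Bmp15 and Dppa3) were called lower in KO over all stages and 0 higher. Of all genes tested in that comparison 18.8 percent were lower and 14.3 percent higher, 33 percent in either direction. Of 14 granulosa and cumulus markers 6 were matched, Fshr, Inha, Inhba, Cyp19a1, Nr5a2 and Kitl. Their sums were 63.7 and 72.1 RPKM in KO nFGO libraries, against 44.9 and 42.6 RPKM in WT nFGO libraries, and 46.3 and 51.8 RPKM in KO FGO libraries, against 36.3 and 45.2 RPKM in WT FGO libraries. At GO2 they were 26.6 and 33.4 RPKM in KO and 22.1 and 16.7 RPKM in WT libraries, and at GO1 14.3 and 18.2 RPKM in KO and 21.4 and 20.5 RPKM in WT libraries. Cyp19a1 made up most of the sum at nFGO and FGO, while Inha was highest in KO nFGO replicate 2, at 12.8 RPKM, against 4.83 RPKM in KO nFGO replicate 1. In the same fit Fshr and Inha were higher in KO than in WT oocytes at nFGO (log2 fold changes 1.344 and 1.87, adjusted p = 0.00671 and 0.0112). These were the only calls among the 5 of these markers tested at nFGO, where 6.77 percent of all genes were higher. Kitl was lower in KO there, at 4.33 and 3.77 RPKM against 5.19 and 5.93 RPKM in WT nFGO libraries, and was not called. Nr5a2 overlapped between the genotypes. At GO2 1 of the 5 was called higher and 0 lower, where 2.96 percent of all genes were higher. Inha was at 0 in WT FGO replicate 2 and Inhba in WT GO2 replicate 1. The matched theca and stroma markers, 2 of 6, summed to 0.253 to 1.19 RPKM in KO and 0.301 to 11.7 RPKM in WT libraries, with Dcn at 0 in 3 KO libraries. The 1 matched marker of 6 for blood, immune and endothelial cells, Cd68, lay at 2.36 to 5.65 RPKM in KO and 1.83 to 3.56 RPKM in WT libraries. At nFGO Cd68 had 4.71 and 3.37 RPKM in KO and 2.096 and 1.83 RPKM in WT libraries, and it was called higher in KO there (log2 fold change 0.75, adjusted p = 0.0386) and over all stages (0.40, adjusted p = 0.0158). The part of these markers in the results below was not tested.

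The levels of the 34 genes spanned a wide range in every library. Ldhb, the B subunit of lactate dehydrogenase, was the highest of all 16940 genes in each GO1 library and second in each GO2 library. In fully grown oocytes it ranked between 4 and 17. It alone held 63.6 to 86.7 percent of the summed RPKM of the 34 genes.

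**Figure D1:**
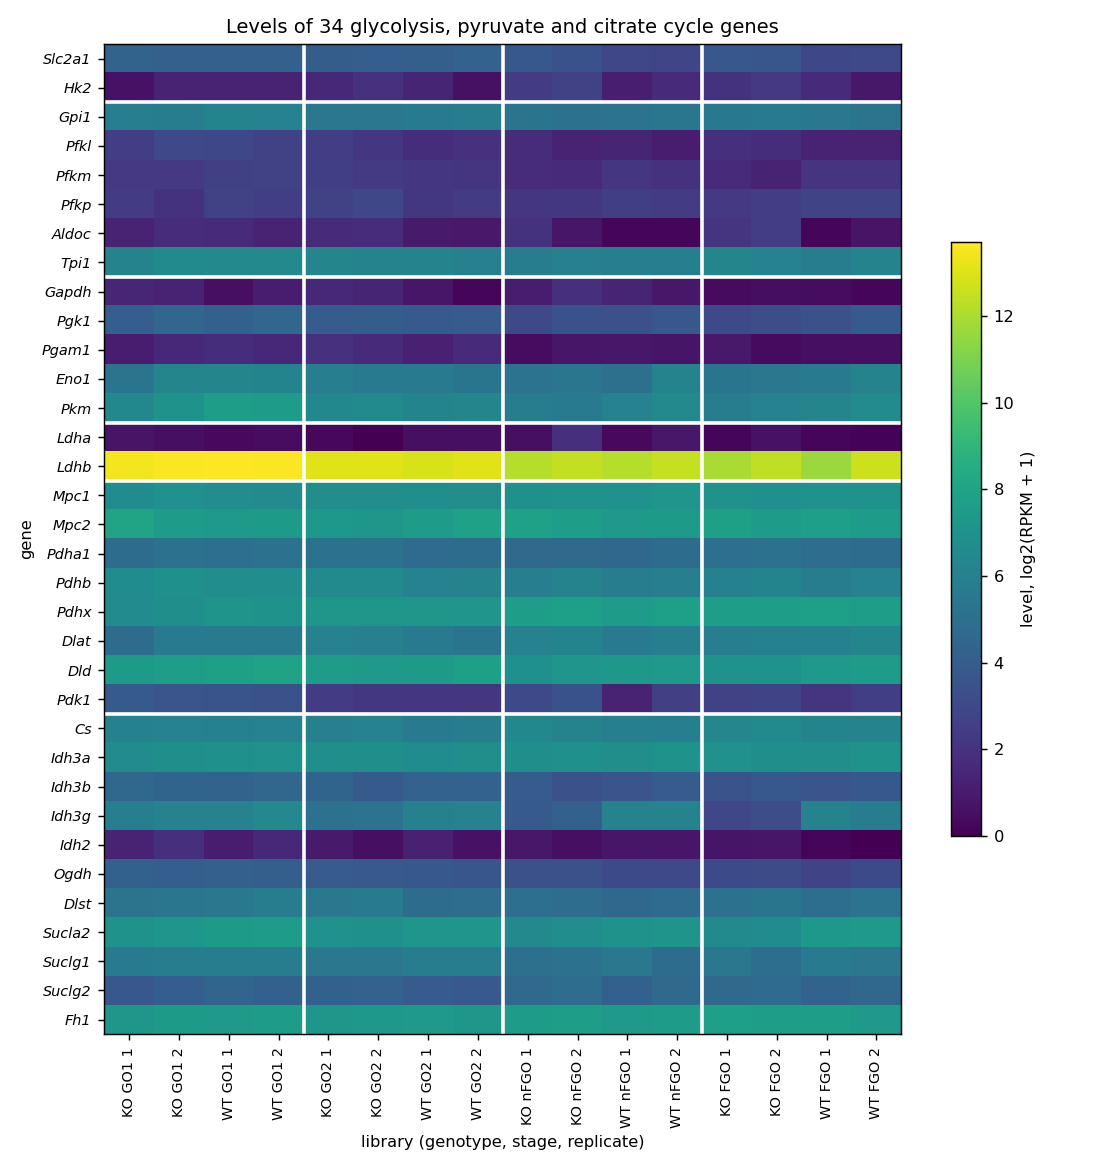
Level of each of the 34 genes (rows, ordered by step, white lines between steps) in each of the 16 libraries (columns, KO left of WT within each stage), on the log2(RPKM + 1) scale. Ldhb stands out in every library, Gapdh, Ldha, Pgam1 and Idh2 lie near the bottom of the scale, and Idh3g is darker in KO than in WT libraries from GO2 on.

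At each stage KO was compared with WT to ask how loss of Snf2h changes the transcripts of the growing oocyte. In fully grown KO oocytes Idh3g and Sucla2 were lower, while Slc2a1 and Aldoc were higher, in both nFGO and FGO. The test was limma's moderated test on log2(RPKM + 1), fitted over the 14557 genes that reached 1 RPKM in 2 or more libraries, with p-values adjusted by Benjamini-Hochberg within each comparison. A gene is called at an adjusted p under 0.05. Of the 34 genes 33 entered the test, all but Ldha. On this scale a low transcript shows a smaller fold change than its RPKM would. The shrinkage is strongest at around 1 RPKM or less and is still present at a few RPKM. In RNA from whole oocytes, fewer cells of a type cannot be told apart from less RNA per cell.

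At GO1, 1 of 33 genes was called, Pkm, which was lower, where 6.63 percent of all genes tested were called (2.16 percent higher and 4.47 percent lower). At GO2, 2 of 33 were called, Dlst higher and Idh3g lower, against 7.64 percent of all genes tested (2.96 percent higher and 4.68 percent lower). At nFGO, 6 of 33 were called against 16.2 percent of all genes tested. Of these, 4 were higher (Slc2a1, Hk2, Aldoc and Pdk1), where 6.77 percent of all genes were higher, and 2 were lower (Idh3g and Sucla2), where 9.4 percent were lower. At FGO, 5 of 33 were called against 17.8 percent of all genes tested. Here 2 were higher (Slc2a1 and Aldoc), where 7.67 percent of all genes were higher, and 3 were lower (Pfkm, Idh3g and Sucla2), where 10.2 percent were lower. Leaving out a library moved these counts, and the counts over all genes tested moved as well. At GO1 both counts rose without KO GO1 replicate 2 and fell without any other library of that stage. Without KO GO1 replicate 2 there were 5 calls at GO1, and 0 without any other library of that stage. At GO2 there was 1 call without KO GO2 replicate 1 and 0 without any other library of that stage. At nFGO there was 1 call without KO nFGO replicate 1, 5 without KO nFGO replicate 2 and 3 without either WT library. At FGO there were 5 without KO FGO replicate 1 and 4 without any other library of that stage, WT FGO replicate 2 among them. In fits of only the groups compared, which hold 4 libraries each, the calls of Pkm at GO1, of Slc2a1, Hk2, Aldoc, Pdk1 and Sucla2 at nFGO and of Slc2a1 and Pfkm at FGO were lost (adjusted p from 0.0589 to 0.219). The shares of the 33 genes, 3.03, 6.06, 18.2 and 15.2 percent at GO1, GO2, nFGO and FGO, lay near or below those of all genes. The median log2 fold change of the 33 genes was -0.11, 0.16, -0.01 and 0.11 at these stages, beside -0.03, -0.00, -0.01 and -0.01 over all genes tested.

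**Figure D2:**
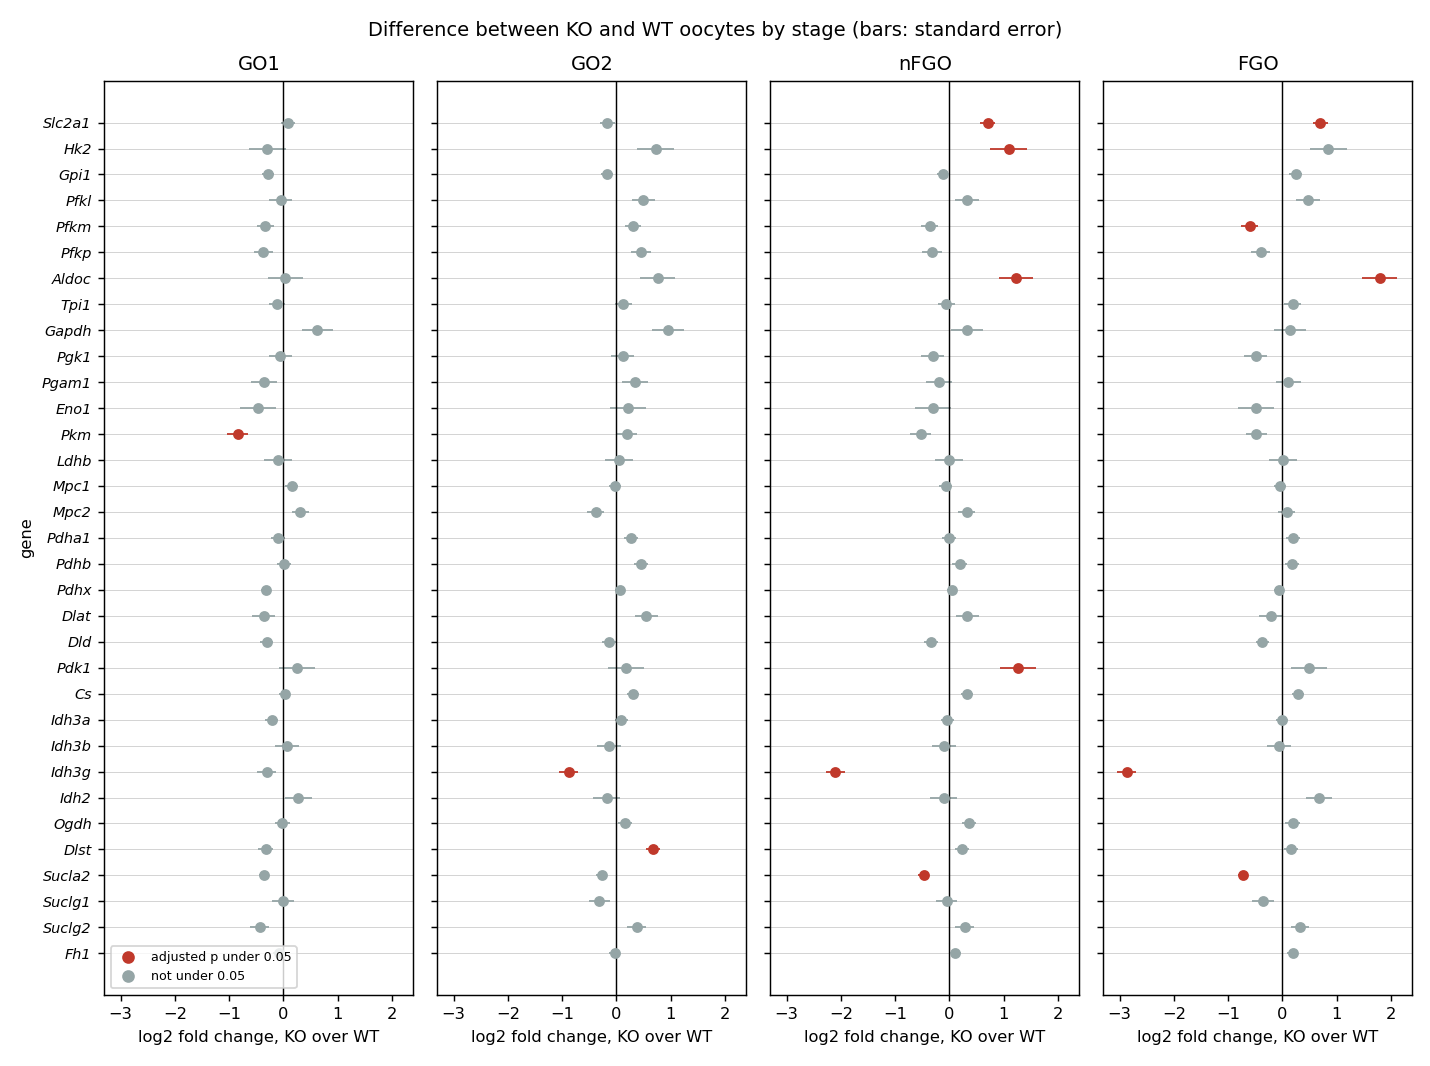
Log2 fold change of KO over WT on the log2(RPKM + 1) scale (x axis, bars 1 standard error from the limma fit) for the 33 genes tested (y axis) at each of 4 stages. Red points passed an adjusted p of 0.05. Idh3g lies further to the left in each panel in the order GO1, GO2, nFGO and FGO, at -2.87 in FGO. The called values of Slc2a1 lie to the right of 0, at 0.71 in nFGO and 0.70 in FGO.

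When the KO-WT differences of the stages were averaged, 14 of 33 genes were called, against 33 percent of all genes tested. Of these 9 were higher (Slc2a1, Hk2, Pfkl, Aldoc, Gapdh, Pdhb, Pdk1, Cs and Dlst), where 14.3 percent of all genes were higher, and 5 were lower (Pfkm, Pkm, Dld, Idh3g and Sucla2), where 18.8 percent were lower. With WT FGO replicate 2 left out the count was again 14, and without KO nFGO replicate 2 it was 11. Without both of these libraries it was 9. With every library rescaled to the same RPKM total it was 16, of which 12 were higher and 4 lower. Over all genes tested 5159 were then called, against 4810 in full. The calls of Slc2a1, Aldoc, Gapdh, Pkm, Dld, Cs, Idh3g and Sucla2 were kept with each single library left out. Those of Hk2, Pfkm, Pdk1 and Dlst were each lost without 1 or more of the 16 libraries, with adjusted p up to 0.113.

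Slc2a1 (ENSMUSG00000028645.11, mm10 chromosome 4, 119108711 to 119137983, plus strand) encodes the glucose transporter GLUT1. It stood at 19.6 and 17.6 RPKM in KO GO1 oocytes, against 17.3 and 17.6 RPKM in WT GO1 oocytes, and at 15.2 and 16.2 RPKM in KO GO2 oocytes, against 16.99 and 18.5 RPKM in WT GO2 oocytes. It stood at 12.4 and 9.84 RPKM in KO nFGO oocytes, against 6.58 and 6.22 RPKM in WT nFGO oocytes, and at 12.1 and 11.9 RPKM in KO FGO oocytes, against 6.82 and 7.13 RPKM in WT FGO oocytes. At GO1 the lower KO library and the higher WT library were almost equal, at 17.62 and 17.58 RPKM. At GO2 both KO libraries were below both WT libraries, and in fully grown oocytes both KO libraries were above both WT libraries at each of the stages. Slc2a1 rose in KO with a log2 fold change of 0.71 ± 0.13 (standard error) at nFGO (adjusted p = 0.00486) and 0.70 ± 0.13 at FGO (adjusted p = 0.00442). Without WT FGO replicate 2 the FGO value was 0.73 (adjusted p = 0.0213). At nFGO the call was lost without KO nFGO replicate 1 (0.55, adjusted p = 0.0543).

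The KO-WT difference of Slc2a1 in fully grown oocytes exceeded that in growing oocytes by 0.74 ± 0.13 on the log2 scale (adjusted p = 0.00862). In this test of the difference itself 2 of 33 genes were called, Slc2a1 as higher and Idh3g as lower, against 6.82 percent of all genes tested (3.41 percent higher and 3.41 percent lower). In WT oocytes Slc2a1 was lower at FGO than at GO2 (log2 fold change -1.23, adjusted p = 1.82e-05), and at -1.26 without WT FGO replicate 2 (adjusted p = 0.00022).

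Hk2, a hexokinase that traps glucose as glucose 6-phosphate, was low throughout. It had 0.612 and 1.57 RPKM in KO GO1 oocytes, against 1.57 and 1.44 RPKM in WT GO1 oocytes, and 1.88 and 2.94 RPKM in KO GO2 oocytes, against 1.72 and 0.527 RPKM in WT GO2 oocytes. It had 4.31 and 5.16 RPKM in KO nFGO oocytes, against 1.26 and 2.18 RPKM in WT nFGO oocytes, and 2.998 and 3.78 RPKM in KO FGO oocytes, against 2.25 and 0.811 RPKM in WT FGO oocytes. The genotypes did not overlap from GO2 on, with KO above WT. The nFGO difference passed the test by little (log2 fold change 1.09 ± 0.34, adjusted p = 0.0486) and was lost without any 1 of the 4 nFGO libraries (adjusted p from 0.0823 to 0.234, with 0.183 without KO nFGO replicate 2). The FGO difference did not pass (0.85, adjusted p = 0.108).

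Aldoc (ENSMUSG00000017390.15, mm10 chromosome 11, 78322968 to 78327781, plus strand), the aldolase isoform best known from brain, was also a low transcript. It had 1.46 and 2.32 RPKM in KO GO1 oocytes, against 2.11 and 1.49 RPKM in WT GO1 oocytes, and 2.19 and 2.37 RPKM in KO GO2 oocytes, against 0.974 and 0.900 RPKM in WT GO2 oocytes. It had 3.05 and 0.791 RPKM in KO nFGO oocytes, against 0.143 and 0.146 RPKM in WT nFGO oocytes, and 3.29 and 4.57 RPKM in KO FGO oocytes, against 0.200 and 0.655 RPKM in WT FGO oocytes. From GO2 on every KO library lay above both WT libraries of its stage, and the KO nFGO libraries differed widely from each other. Aldoc rose at nFGO (log2 fold change 1.23 ± 0.32, adjusted p = 0.0217) and at FGO (1.79 ± 0.32, adjusted p = 0.00283). The FGO value ran from 0.72 with a pseudocount of 5 to 3.06 with a pseudocount of 0.1, called with either, and was 2.03 without WT FGO replicate 2 (adjusted p = 0.00888). At nFGO the value was 0.65 without KO nFGO replicate 1 (adjusted p = 0.174) and 1.82 without KO nFGO replicate 2 (adjusted p = 0.00288), and the call was also lost without WT nFGO replicate 1 (adjusted p = 0.0819) or WT nFGO replicate 2 (adjusted p = 0.0974). It ran from 0.41 to 2.78 over the same pseudocounts.

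**Figure D3:**
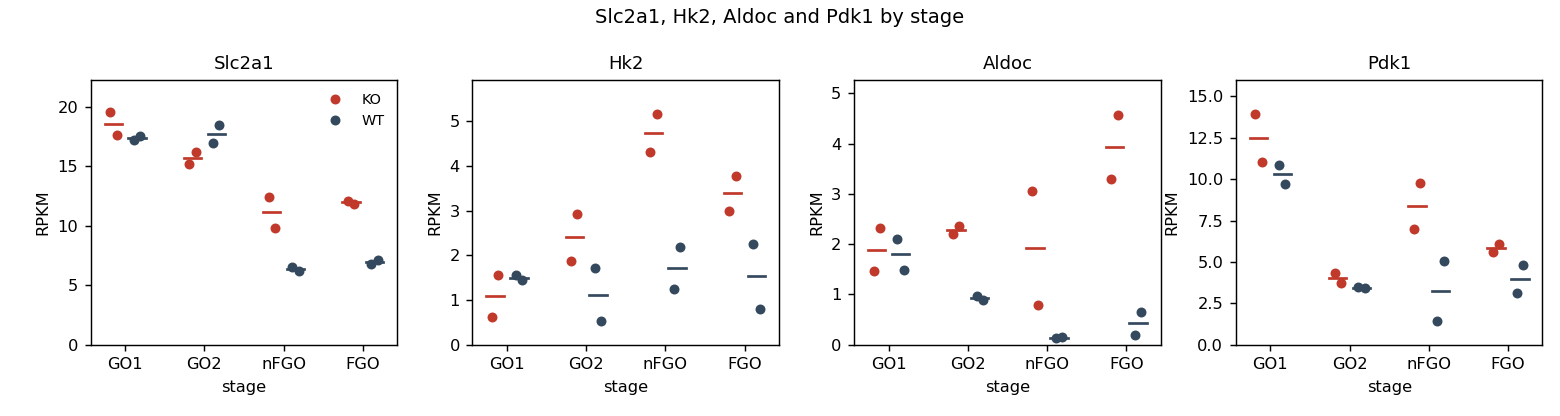
RPKM of Slc2a1, Hk2, Aldoc and Pdk1 (y axes, from 0) at 4 stages in KO (red, left) and WT (dark, right) oocytes. Points are libraries and lines the mean of 2 libraries, and Slc2a1 in FGO oocytes sits at 12.1 and 11.9 RPKM in KO, above 6.82 and 7.13 RPKM in WT.

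The 3 phosphofructokinase genes, Pfkl (liver type), Pfkm (muscle type) and Pfkp (platelet type), encode the enzyme of the committed step of glycolysis, and none exceeded 7.25 RPKM. Pfkm had 3.92 and 3.82 RPKM in KO GO1 oocytes, against 5.00 and 5.25 RPKM in WT GO1 oocytes, and 4.89 and 3.97 RPKM in KO GO2 oocytes, against 3.45 and 3.29 RPKM in WT GO2 oocytes. It had 2.33 and 2.27 RPKM in KO nFGO oocytes, against 3.42 and 3.07 RPKM in WT nFGO oocytes, and 2.07 and 1.57 RPKM in KO FGO oocytes, against 3.23 and 3.31 RPKM in WT FGO oocytes. KO was thus below WT at GO1, nFGO and FGO and above it at GO2, with no overlap. The difference was called at FGO (log2 fold change -0.60 ± 0.15, adjusted p = 0.0173). It was -0.59 without WT FGO replicate 2 (adjusted p = 0.0753), and the call was also lost without WT FGO replicate 1 (adjusted p = 0.0641) or KO FGO replicate 2 (adjusted p = 0.139), and in the fit of only the FGO libraries (adjusted p = 0.111).

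Pfkl had 4.77 and 7.25 RPKM in KO GO1 oocytes, against 6.74 and 5.61 RPKM in WT GO1 oocytes, and 4.91 and 3.44 RPKM in KO GO2 oocytes, against 2.42 and 2.82 RPKM in WT GO2 oocytes. It had 2.32 and 1.60 RPKM in KO nFGO oocytes, against 1.65 and 1.09 RPKM in WT nFGO oocytes, and 2.69 and 2.52 RPKM in KO FGO oocytes, against 1.58 and 1.60 RPKM in WT FGO oocytes. The genotypes overlapped at GO1 and nFGO, and KO lay above WT at GO2 and FGO. Pfkl was called only over all 4 stages (0.31, adjusted p = 0.0462), and that call was lost without WT FGO replicate 2 (adjusted p = 0.0733) and without 11 of the other libraries (adjusted p up to 0.11).

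Pfkp had 4.45 and 3.02 RPKM in KO GO1 oocytes, against 5.23 and 4.86 RPKM in WT GO1 oocytes, and 5.37 and 6.55 RPKM in KO GO2 oocytes, against 3.74 and 4.38 RPKM in WT GO2 oocytes. It had 3.46 and 3.63 RPKM in KO nFGO oocytes, against 4.83 and 4.51 RPKM in WT nFGO oocytes, and 3.79 and 4.78 RPKM in KO FGO oocytes, against 5.95 and 5.90 RPKM in WT FGO oocytes. As for Pfkm, KO lay below WT at GO1, nFGO and FGO and above it at GO2, but no KO-WT comparison of Pfkp passed the test.

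Lower glycolysis runs from glyceraldehyde 3-phosphate to pyruvate. Gapdh, often used as a constant reference in other cells, had 1.81 and 1.57 RPKM in KO GO1 oocytes, against 0.460 and 1.06 RPKM in WT GO1 oocytes, and 1.998 and 1.69 RPKM in KO GO2 oocytes, against 0.794 and 0.193 RPKM in WT GO2 oocytes. It had 1.11 and 2.75 RPKM in KO nFGO oocytes, against 1.72 and 0.852 RPKM in WT nFGO oocytes, and 0.333 and 0.430 RPKM in KO FGO oocytes, against 0.360 and 0.151 RPKM in WT FGO oocytes. KO lay above WT while oocytes grew, and the genotypes overlapped in fully grown oocytes. It was called over all 4 stages (log2 fold change 0.51 ± 0.15, adjusted p = 0.0181), but not without both WT FGO replicate 2 and KO nFGO replicate 2 (adjusted p = 0.0737). Gapdh, Pgam1, Ldha and Eno1 have near-identical pseudogenes in the mouse genome, and their values are uncertain because reads may have been split between copies. In the authors' deposited table the mean normalized counts of Gapdh were 683 in KO and 600 in WT at GO1, and 486 and 502 at GO2. Its log2 fold changes there were 0.19 and -0.05, both sorted as similar level, so those counts do not show the KO rise seen in RPKM. In WT GO1 oocytes Pgk1 had a mean count of 957 and a mean of 19.7 RPKM, so the low RPKM of Gapdh is in doubt as well.

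Pkm (ENSMUSG00000032294.17, mm10 chromosome 9, 59656368 to 59679375, plus strand) encodes pyruvate kinase, the last enzyme of glycolysis. It had 83.6 and 131 RPKM in KO GO1 oocytes, against 194 and 183 RPKM in WT GO1 oocytes, and 82.6 and 89.7 RPKM in KO GO2 oocytes, against 72.9 and 77.9 RPKM in WT GO2 oocytes. It had 53.9 and 49.8 RPKM in KO nFGO oocytes, against 65.3 and 85.9 RPKM in WT nFGO oocytes, and 55.3 and 65.4 RPKM in KO FGO oocytes, against 74.4 and 95.2 RPKM in WT FGO oocytes. KO was below WT at every stage but GO2, where it was above. The GO1 fall (log2 fold change -0.84 ± 0.19, adjusted p = 0.0269) became -0.53 without KO GO1 replicate 1 (adjusted p = 0.179), and the call was also lost without WT GO1 replicate 1 (adjusted p = 0.135) or WT GO1 replicate 2 (adjusted p = 0.104). Over all 4 stages Pkm fell by 0.41 on the log2 scale (adjusted p = 0.00655), and this call was kept with every library left out in turn. In WT oocytes Pkm was lower at GO2 than at GO1 (log2 fold change -1.31, adjusted p = 0.00757), a call lost without WT GO1 replicate 2 (adjusted p = 0.0595) or WT GO2 replicate 1 (adjusted p = 0.0796).

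Pgam1, a phosphoglycerate mutase, had 1.05 and 1.95 RPKM in KO GO1 oocytes, against 2.42 and 1.89 RPKM in WT GO1 oocytes, and 2.86 and 2.12 RPKM in KO GO2 oocytes, against 1.42 and 2.13 RPKM in WT GO2 oocytes. It had 0.382 and 0.776 RPKM in KO nFGO oocytes, against 0.838 and 0.737 RPKM in WT nFGO oocytes, and 0.927 and 0.332 RPKM in KO FGO oocytes, against 0.489 and 0.472 RPKM in WT FGO oocytes. The genotypes overlapped at every stage. The WT decline, with a log2 fold change of -0.89 at FGO against GO2 (adjusted p = 0.00847), was lost without WT GO2 replicate 2 (adjusted p = 0.0787), was kept without WT FGO replicate 2 (adjusted p = 0.0381) and ran from -1.66 to -0.30 over the pseudocounts.

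The other glycolytic genes were not called in any KO-WT comparison. Gpi1, which converts glucose 6-phosphate to fructose 6-phosphate, lay between 34.03 and 57.6 RPKM in KO and between 36.6 and 70.7 RPKM in WT libraries. Tpi1, triosephosphate isomerase, lay between 52.2 and 92.3 RPKM in KO and between 55.2 and 86.0 RPKM in WT libraries. Pgk1, a phosphoglycerate kinase, lay between 7.03 and 21.9 RPKM in KO and between 9.63 and 21.6 RPKM in WT libraries. The ranges of the genotypes overlapped for each of these genes. Eno1, an enolase, spanned 35.9 to 74.5 RPKM in KO and 32.1 to 74.0 RPKM in WT libraries.

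Lactate dehydrogenase transcripts were almost all of the B type. Ldhb had 11222 and 12790.5 RPKM in KO GO1 oocytes, against 13324 and 12464 RPKM in WT GO1 oocytes, and 8327 and 8486 RPKM in KO GO2 oocytes, against 7488 and 8733 RPKM in WT GO2 oocytes. It had 4697 and 5600.1 RPKM in KO nFGO oocytes, against 4645 and 5738 RPKM in WT nFGO oocytes, and 3940.4 and 5375 RPKM in KO FGO oocytes, against 3187 and 6574.5 RPKM in WT FGO oocytes. The genotypes overlapped at every stage, and no KO-WT difference of Ldhb was called. In WT oocytes it was lower at FGO than at GO2 (log2 fold change -0.82 ± 0.26, adjusted p = 0.0196). This value was -1.34 without WT FGO replicate 2 (adjusted p = 0.000244) and -0.30 without WT FGO replicate 1 (adjusted p = 0.219), and the call was also lost without WT GO2 replicate 2 (adjusted p = 0.112).

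Ldha, the A subunit that prevails in muscle, had 0.620 and 0.484 RPKM in KO GO1 oocytes, against 0.296 and 0.347 RPKM in WT GO1 oocytes, and 0.212 and 0 RPKM in KO GO2 oocytes, against 0.492 and 0.466 RPKM in WT GO2 oocytes. It had 0.467 and 2.67 RPKM in KO nFGO oocytes, against 0.267 and 0.861 RPKM in WT nFGO oocytes, and 0.195 and 0.586 RPKM in KO FGO oocytes, against 0.149 and 0.0794 RPKM in WT FGO oocytes. Only KO nFGO replicate 2 exceeded 1 RPKM, the library that also had the highest Inha and Gapdh. Ldha did not enter the test.

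**Figure D4:**
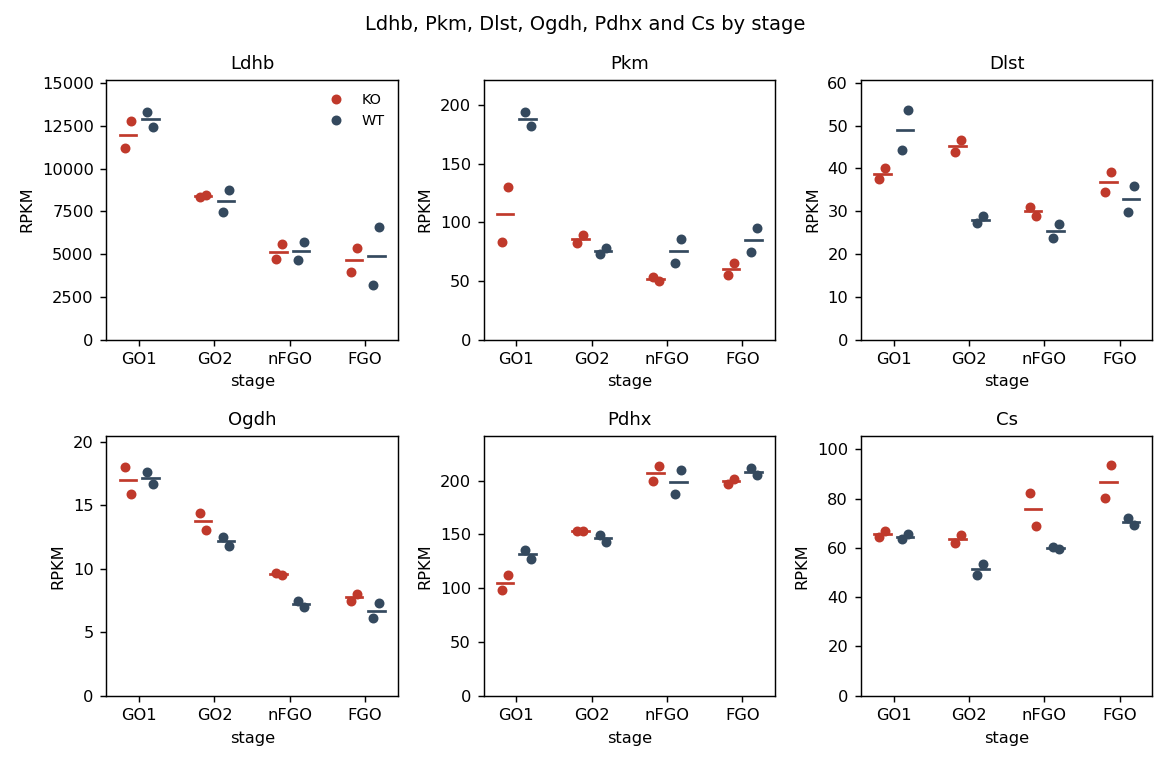
RPKM of Ldhb, Pkm, Dlst, Ogdh, Pdhx and Cs (y axes, from 0) at 4 stages in KO (red, left) and WT (dark, right) oocytes. Points are libraries and lines the mean of 2 libraries. Ldhb lies at 11222 RPKM or above at GO1 and at 6574.5 RPKM or below in fully grown oocytes, and Dlst at GO2 lies at 43.8 and 46.7 RPKM in KO, above 27.3 and 28.8 RPKM in WT.

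Pyruvate enters mitochondria through the carrier encoded by Mpc1 and Mpc2. Mpc1 lay between 102 and 131 RPKM in KO and between 95.1 and 140.1 RPKM in WT libraries. Mpc2 lay between 153 and 255 RPKM in KO and between 165 and 225 RPKM in WT libraries. Neither was called in any comparison.

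Pyruvate dehydrogenase consists of an E1 enzyme (Pdha1 and Pdhb), an E2 core (Dlat) with its binding protein (Pdhx), and the E3 enzyme Dld, and kinases such as Pdk1 switch it off. Pdk1 had 13.9 and 11.1 RPKM in KO GO1 oocytes, against 10.9 and 9.73 RPKM in WT GO1 oocytes, and 4.35 and 3.74 RPKM in KO GO2 oocytes, against 3.49 and 3.43 RPKM in WT GO2 oocytes. It had 6.99 and 9.75 RPKM in KO nFGO oocytes, against 1.45 and 5.08 RPKM in WT nFGO oocytes, and 5.63 and 6.10 RPKM in KO FGO oocytes, against 3.13 and 4.81 RPKM in WT FGO oocytes. KO lay above WT at every stage without overlap, by little at GO1 and GO2. The nFGO rise (log2 fold change 1.26 ± 0.33, adjusted p = 0.0242) was 0.61 without WT nFGO replicate 1 (adjusted p = 0.159) and was also lost without KO nFGO replicate 1 (adjusted p = 0.056) or KO nFGO replicate 2 (adjusted p = 0.136). At FGO the difference was 0.49 (adjusted p = 0.346). Pdk1 was lower at GO2 than at GO1 in WT oocytes (log2 fold change -1.34, adjusted p = 0.0333), a call lost without any 1 of those 4 libraries (adjusted p from 0.117 to 0.169).

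Dld, shared by pyruvate dehydrogenase and oxoglutarate dehydrogenase, had 176 and 197 RPKM in KO GO1 oocytes, against 223 and 239.9 RPKM in WT GO1 oocytes, and 185 and 172 RPKM in KO GO2 oocytes, against 176 and 219 RPKM in WT GO2 oocytes. It had 117 and 141 RPKM in KO nFGO oocytes, against 157 and 169 RPKM in WT nFGO oocytes, and 133 and 131 RPKM in KO FGO oocytes, against 162 and 180.0 RPKM in WT FGO oocytes. The genotypes overlapped only at GO2. Dld fell by 0.29 on the log2 scale over all 4 stages (adjusted p = 0.00367), kept with every library left out in turn, but at no single stage.

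Pdhb had 98.6 and 115 RPKM in KO GO1 oocytes, against 104 and 106 RPKM in WT GO1 oocytes, and 93.9 and 94.6 RPKM in KO GO2 oocytes, against 67.6 and 68.7 RPKM in WT GO2 oocytes. It had 57.0 and 68.1 RPKM in KO nFGO oocytes, against 52.4 and 56.9 RPKM in WT nFGO oocytes, and 64.2 and 70.5 RPKM in KO FGO oocytes, against 52.6 and 67.5 RPKM in WT FGO oocytes. The clearest gap was at GO2, where the adjusted p was 0.051. Over all 4 stages the log2 fold change was 0.21 (adjusted p = 0.0267), lost without KO nFGO replicate 2 (adjusted p = 0.0644) and without 7 of the other libraries (adjusted p from 0.0508 to 0.0619).

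Pdha1, Pdhx and Dlat were not called between the genotypes. Pdha1 lay between 25.3 and 34.8 RPKM in KO and between 23.6 and 35.3 RPKM in WT libraries. Pdhx lay between 98.0 and 214 RPKM in KO and between 127 and 211 RPKM in WT libraries. Dlat lay between 28.1 and 71.4 RPKM in KO and between 38.8 and 77.4 RPKM in WT libraries. Each pair of ranges overlapped. Pdhx and Dlat were higher at FGO than at GO2 in WT oocytes (log2 fold changes 0.51 and 0.68, adjusted p = 0.000627 and 0.0192). Without WT FGO replicate 2 the value of Pdhx was 0.53 (adjusted p = 0.00372). The call of Dlat was lost without WT GO2 replicate 2 or WT FGO replicate 2 (adjusted p from 0.125 to 0.141).

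In the citrate cycle, Cs encodes citrate synthase, which joins acetyl-CoA to oxaloacetate. Cs had 64.5 and 66.8 RPKM in KO GO1 oocytes, against 63.5 and 65.6 RPKM in WT GO1 oocytes, and 62.0 and 65.2 RPKM in KO GO2 oocytes, against 49.2 and 53.4 RPKM in WT GO2 oocytes. It had 82.0 and 69.1 RPKM in KO nFGO oocytes, against 60.3 and 59.4 RPKM in WT nFGO oocytes, and 80.2 and 93.6 RPKM in KO FGO oocytes, against 72.1 and 69.2 RPKM in WT FGO oocytes. KO lay above WT without overlap from GO2 on. Cs rose over all 4 stages by 0.24 ± 0.05 on the log2 scale (adjusted p = 0.00541), kept with every library left out in turn, and no single stage was called.

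Isocitrate dehydrogenase 3 is the NAD-dependent enzyme of the cycle, built of the catalytic alpha subunit (Idh3a) and the beta and gamma subunits (Idh3b and Idh3g). Idh3g (ENSMUSG00000002010.17, mm10 chromosome X, 73778963 to 73786897, minus strand) had 57.8 and 66.0 RPKM in KO GO1 oocytes, against 67.1 and 87.6 RPKM in WT GO1 oocytes. It had 33.97 and 36.2 RPKM in KO GO2 oocytes, against 63.3 and 67.4 RPKM in WT GO2 oocytes. It had 13.6 and 17.2 RPKM in KO nFGO oocytes, against 68.8 and 69.5 RPKM in WT nFGO oocytes, and 6.43 and 8.56 RPKM in KO FGO oocytes, against 68.1 and 54.1 RPKM in WT FGO oocytes. KO was below WT at every stage without overlap. The KO level was lower at GO2 than at GO1 and lower again in fully grown oocytes, with FGO below nFGO, while the WT level was 54.1 RPKM or more throughout.

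The log2 fold change of Idh3g was -0.31 ± 0.17 at GO1, where it did not pass the test (adjusted p = 0.292). It was -0.88 ± 0.17 at GO2 (adjusted p = 0.0136), a call lost without any 1 of the 4 GO2 libraries (adjusted p from 0.0544 to 0.105). It was -2.10 ± 0.17 at nFGO (adjusted p = 4.65e-05) and -2.87 ± 0.17 at FGO (adjusted p = 4.51e-06), kept with each library left out. Without WT FGO replicate 2 the FGO value was -3.04 (adjusted p = 2.53e-05), and without KO nFGO replicate 2 the nFGO value was -2.26 (adjusted p = 0.000318). The KO-WT difference in fully grown oocytes less that in growing oocytes was -1.90 ± 0.17 (adjusted p = 0.000253).

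The other subunits were not called between genotypes. Idh3a had 95.2 and 112 RPKM in KO GO1 oocytes, against 118 and 122 RPKM in WT GO1 oocytes, and 111 and 112 RPKM in KO GO2 oocytes, against 101 and 109 RPKM in WT GO2 oocytes. It had 111 and 115 RPKM in KO nFGO oocytes, against 107 and 125 RPKM in WT nFGO oocytes, and 123 and 114 RPKM in KO FGO oocytes, against 107 and 132 RPKM in WT FGO oocytes. The genotypes overlapped in fully grown oocytes, and Idh3a was not called in any comparison.

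Idh3b had 23.1 and 20.4 RPKM in KO GO1 oocytes, against 19.4 and 22.2 RPKM in WT GO1 oocytes, and 20.4 and 13.9 RPKM in KO GO2 oocytes, against 18.6 and 18.7 RPKM in WT GO2 oocytes. It had 15.1 and 9.60 RPKM in KO nFGO oocytes, against 11.2 and 14.9 RPKM in WT nFGO oocytes, and 10.3 and 12.6 RPKM in KO FGO oocytes, against 11.1 and 12.7 RPKM in WT FGO oocytes. The genotypes overlapped at every stage, with no KO-WT call. Per length, there were 0.0524 and 0.0749 Idh3g transcripts for each Idh3a transcript in KO FGO libraries, against 0.635 and 0.411 in WT FGO libraries. In KO GO1 libraries the ratio was 0.607 and 0.587, against 0.569 and 0.717 in WT GO1 libraries.

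Idh3g starts head to head with Ssr4, which encodes a subunit of the translocon-associated protein complex at the endoplasmic reticulum. The start sites lie 130 bases apart in the deposited annotation, and Ssr4 is described here because its values were seen to fall with those of Idh3g. Ssr4 had 92.5 and 95.3 RPKM in KO GO1 oocytes, against 84.1 and 122 RPKM in WT GO1 oocytes, and 48.4 and 46.6 RPKM in KO GO2 oocytes, against 93.4 and 99.7 RPKM in WT GO2 oocytes. It had 19.6 and 23.01 RPKM in KO nFGO oocytes, against 52.9 and 55.4 RPKM in WT nFGO oocytes, and 9.70 and 15.0 RPKM in KO FGO oocytes, against 55.5 and 48.5 RPKM in WT FGO oocytes. The genotypes overlapped at GO1 and stood apart at each later stage, with KO lower.

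The log2 fold change of Ssr4 was -1.01 at GO2 (adjusted p = 0.012), -1.31 at nFGO (adjusted p = 0.0011) and -2.02 at FGO (adjusted p = 5.58e-05). The GO2 call was lost without KO GO2 replicate 2 or WT GO2 replicate 2 (adjusted p from 0.0819 to 0.12). It was -2.11 at FGO without WT FGO replicate 2 (adjusted p = 0.000629) and -1.42 at nFGO without KO nFGO replicate 2 (adjusted p = 0.00526). Among genes of the table that lie within 100 kb, Bcap31 was not called at any stage, with log2 fold changes of 0.11 at nFGO and 0.13 at FGO. Plxnb3 and Srpk3 were at most 0.818 and 1.82 RPKM in any library. Head-to-head partners within 1000 bases were found for 2 more of the 34 genes, each with 161 bases between the starts, and there the partner was called where the listed gene was not. Dcaf6, the partner of Mpc2, had 1.41 and 2.08 RPKM in KO FGO oocytes, against 3.14 and 4.99 RPKM in WT FGO oocytes, and was lower (log2 fold change -0.87, adjusted p = 0.0499). Apip, the partner of Pdhx, had 324 and 265 RPKM in KO nFGO oocytes, against 222 and 238 RPKM in WT nFGO oocytes, and was higher (0.35, adjusted p = 0.0355). In both the genotypes stood apart without overlap. In each pair the annotated gene spans do not overlap, with Idh3g reaching to 73786897 and Ssr4 beginning at 73787028. Whether the counting used strand is not given in the sources used here. Reads of transcripts that run past these spans could then not be told apart by strand, and this was not tested.

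**Figure D5:**
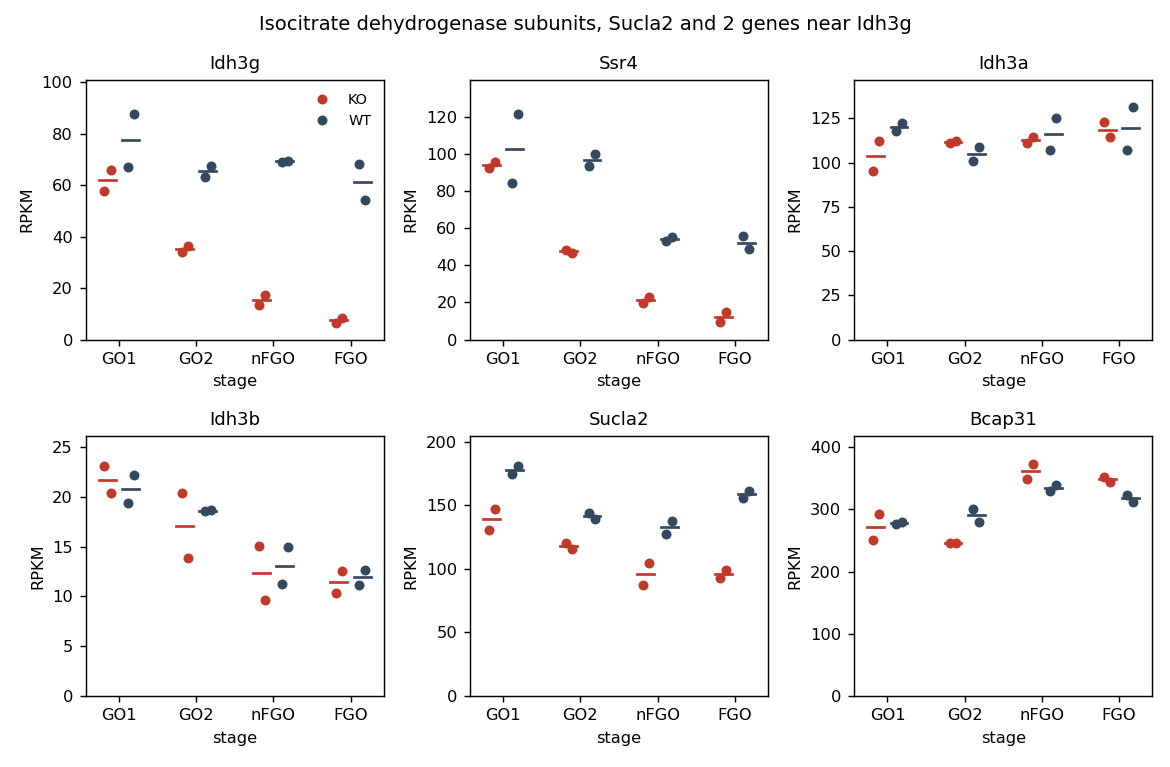
RPKM of Idh3g, its head-to-head neighbour Ssr4, Idh3a, Idh3b, Sucla2 and the nearby gene Bcap31 (y axes, from 0) at 4 stages in KO (red, left) and WT (dark, right) oocytes. Points are libraries and lines the mean of 2 libraries. Idh3g and Ssr4 lie lower in KO from GO2 on, reaching 6.43 and 9.70 RPKM in FGO, while Idh3a stays at 95.2 RPKM or above.

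The next enzymes turn oxoglutarate into succinyl-CoA and succinate. Dlst, the E2 core of oxoglutarate dehydrogenase, had 37.4 and 40.0 RPKM in KO GO1 oocytes, against 44.3 and 53.7 RPKM in WT GO1 oocytes, and 43.8 and 46.7 RPKM in KO GO2 oocytes, against 27.3 and 28.8 RPKM in WT GO2 oocytes. It had 30.99 and 28.9 RPKM in KO nFGO oocytes, against 23.6 and 27.03 RPKM in WT nFGO oocytes, and 34.5 and 39.2 RPKM in KO FGO oocytes, against 29.8 and 35.8 RPKM in WT FGO oocytes. KO was below WT at GO1 and above it at GO2 and nFGO, and the genotypes overlapped at FGO. Dlst rose in KO at GO2 (log2 fold change 0.67 ± 0.13, adjusted p = 0.0136), a call lost without KO GO2 replicate 2 (adjusted p = 0.149), WT GO2 replicate 1 (adjusted p = 0.0744) or WT GO2 replicate 2 (adjusted p = 0.0683).

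The KO-WT difference of Dlst at GO2 exceeded that at GO1 by 0.997 ± 0.19 (adjusted p = 0.0213), the only call among 33 genes where 4 percent of all genes tested were called (1.84 percent higher and 2.16 percent lower). That call was lost without KO GO1 replicate 1, WT GO1 replicate 2, KO GO2 replicate 2, WT GO2 replicate 1 or WT GO2 replicate 2 (adjusted p from 0.0573 to 0.108). When each library was rescaled to the same RPKM total, the median KO-WT log2 fold change of all genes at GO2 was 0.11, and 6 of the 33 genes were called there, 5 higher and 1 lower. Over all genes tested 1371 were called at GO2 after this rescaling, against 1112 in full. Dlst then stood at 0.81 at GO2. Ogdh, the E1 enzyme of the same complex, was not called between genotypes and lay between 7.502 and 18.01 RPKM in KO and between 6.11 and 17.7 RPKM in WT libraries. In WT oocytes Ogdh was lower at FGO than at GO2 (log2 fold change -0.78, adjusted p = 0.000491), and at -0.89 without WT FGO replicate 2 (adjusted p = 0.0013).

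Succinyl-CoA synthetase pairs Suclg1 with either of the subunits Sucla2 (ATP-forming) or Suclg2 (GTP-forming). Sucla2 (ENSMUSG00000022110.13, mm10 chromosome 14, 73525319 to 73596142, plus strand) had 131 and 147 RPKM in KO GO1 oocytes, against 174 and 181 RPKM in WT GO1 oocytes, and 120.0 and 115 RPKM in KO GO2 oocytes, against 144 and 139 RPKM in WT GO2 oocytes. It had 86.9 and 104 RPKM in KO nFGO oocytes, against 128 and 138 RPKM in WT nFGO oocytes, and 92.4 and 98.8 RPKM in KO FGO oocytes, against 156 and 161 RPKM in WT FGO oocytes. KO lay below WT at all 4 stages without overlap. The fall was -0.47 ± 0.10 at nFGO (adjusted p = 0.00876) and -0.72 ± 0.10 at FGO (adjusted p = 0.000636) on the log2 scale. The FGO value was -0.70 without WT FGO replicate 2 (adjusted p = 0.0067). At nFGO it was -0.60 without KO nFGO replicate 2 (adjusted p = 0.00808), and the call was lost without KO nFGO replicate 1 (-0.34, adjusted p = 0.0881) or WT nFGO replicate 2 (-0.42, adjusted p = 0.0767). Over all 4 stages Sucla2 fell by 0.45 on the log2 scale (adjusted p = 5.03e-05), kept with every library left out in turn.

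Suclg1 had 50.8 and 53.3 RPKM in KO GO1 oocytes, against 52.0 and 52.5 RPKM in WT GO1 oocytes, and 42.3 and 42.3 RPKM in KO GO2 oocytes, against 52.5 and 53.1 RPKM in WT GO2 oocytes. It had 32.8 and 34.3 RPKM in KO nFGO oocytes, against 43.1 and 27.8 RPKM in WT nFGO oocytes, and 43.0 and 29.5 RPKM in KO FGO oocytes, against 50.7 and 41.4 RPKM in WT FGO oocytes. The genotypes stood apart only at GO2, where the difference did not pass (-0.31, adjusted p = 0.372).

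Suclg2 had 12.3 and 16.0 RPKM in KO GO1 oocytes, against 20.8 and 17.96 RPKM in WT GO1 oocytes, and 18.4 and 19.1 RPKM in KO GO2 oocytes, against 15.1 and 13.3 RPKM in WT GO2 oocytes. It had 24.5 and 29.1 RPKM in KO nFGO oocytes, against 18.3 and 25.9 RPKM in WT nFGO oocytes, and 25.97 and 26.6 RPKM in KO FGO oocytes, against 19.9 and 21.7 RPKM in WT FGO oocytes. KO was lower at GO1, higher at GO2 and FGO, and overlapping at nFGO, and no difference was called (0.33 at FGO, adjusted p = 0.224). The remaining genes of the cycle, Fh1 (fumarase) and Idh2 (the mitochondrial NADP-dependent isocitrate dehydrogenase), were not called between genotypes. Fh1 lay between 151 and 209 RPKM in KO and between 153 and 195 RPKM in WT libraries. Idh2 lay between 0.450 and 2.55 RPKM in KO and between 0 and 1.86 RPKM in WT libraries.

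Promoters are shown for Idh3g, Sucla2, Slc2a1 and Aldoc, the 4 genes whose FGO call was kept with each library left out. Each is 300 bases, 250 before and 50 after the start of the gene in RefSeq on GRCm38.p6, the assembly that mm10 names, written 5′ to 3′ on the gene's strand. Of the 34 genes, 33 had such a sequence, all but Idh3a. Capitals mark exact matches on either strand to AAGATGGCG (YY1), CCGGAAG (ETS factors), GCGCANGCG (NRF1) or ACGTG (core of the hypoxia response element), none of which overlapped each other in these 4 windows.
Idh3g (chrX:73786848-73787147, minus): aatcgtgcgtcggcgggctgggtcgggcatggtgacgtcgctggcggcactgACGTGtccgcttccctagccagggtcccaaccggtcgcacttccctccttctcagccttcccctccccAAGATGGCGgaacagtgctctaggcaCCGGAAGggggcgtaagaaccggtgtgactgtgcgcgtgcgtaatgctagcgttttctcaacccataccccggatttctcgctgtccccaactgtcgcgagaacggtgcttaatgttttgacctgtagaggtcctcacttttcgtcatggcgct
Sucla2 (chr14:73552536-73552835, plus): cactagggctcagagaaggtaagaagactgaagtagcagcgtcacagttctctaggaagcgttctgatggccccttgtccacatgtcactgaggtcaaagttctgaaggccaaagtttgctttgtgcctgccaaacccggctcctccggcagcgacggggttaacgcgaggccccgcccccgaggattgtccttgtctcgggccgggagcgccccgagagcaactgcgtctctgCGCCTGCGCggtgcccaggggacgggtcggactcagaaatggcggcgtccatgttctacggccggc
Slc2a1 (chr4:119108495-119108794, plus): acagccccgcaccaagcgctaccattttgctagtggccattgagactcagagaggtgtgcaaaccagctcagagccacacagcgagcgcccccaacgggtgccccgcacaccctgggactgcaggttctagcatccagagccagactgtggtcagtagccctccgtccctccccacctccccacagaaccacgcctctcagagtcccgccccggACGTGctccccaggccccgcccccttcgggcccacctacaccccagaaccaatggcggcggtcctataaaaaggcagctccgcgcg
Aldoc (chr11:78322823-78323122, plus): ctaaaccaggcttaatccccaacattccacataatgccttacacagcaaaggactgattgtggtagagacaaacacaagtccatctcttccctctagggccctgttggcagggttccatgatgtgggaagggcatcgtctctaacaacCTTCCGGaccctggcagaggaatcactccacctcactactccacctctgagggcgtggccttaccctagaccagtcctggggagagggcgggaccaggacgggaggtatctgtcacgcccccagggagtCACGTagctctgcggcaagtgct

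The Idh3g window shares 225 of its 300 bases with the window of Ssr4. It holds 1 match each to the YY1, ETS and hypoxia motifs, and 1.4, 8.86 and 19.6 percent of the 32851 promoters given by RefSeq hold them. Sucla2 holds 1 match to the NRF1 motif, which 6.25 percent of all promoters hold, and its window lies inside the longer gene span of the deposited annotation. Slc2a1 and Aldoc hold 1 match each to ACGTG, and Aldoc, the first of whose 2 windows is shown, holds 1 to CCGGAAG. Over the 33 genes, ACGTG was found for 12, CCGGAAG for 5, GCGCANGCG for 7 and AAGATGGCG for 1. These matches are a description of the sequence alone.

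Growth was compared within WT oocytes. FGO oocytes came from females given hormone, so at FGO against GO2 growth cannot be told apart from an effect of hormone. At GO2 against GO1, 6 of 33 genes were called, each of them lower (Gpi1, Pfkl, Pkm, Pdhb, Pdk1 and Dlst), where 7.55 percent of all genes tested were called (3.17 percent higher and 4.38 percent lower). The median log2 fold change was -0.33 over the 33 genes and -0.01 over all genes. None of these 6 calls was kept with each of the 4 libraries left out, and the highest adjusted p was then 0.204. No call was left without WT GO1 replicate 2 or without WT GO2 replicate 1. At FGO against GO2, 11 of 33 were called, against 48.4 percent of all genes tested. Of these 4 were higher (Pdhx, Dlat, Cs and Suclg2), where 26.3 percent of all genes were higher, and 7 were lower (Slc2a1, Gpi1, Pgam1, Ldhb, Idh3b, Idh2 and Ogdh), where 22.1 percent were lower. The calls of Slc2a1, Pdhx, Cs and Ogdh were kept with each library left out, and without WT FGO replicate 2 there were 6 calls. There were 5 without WT GO2 replicate 2, and 8 without WT GO2 replicate 1 or without WT FGO replicate 1. At FGO against nFGO limma called none of the 33 genes, where 2.69 percent of all genes tested were called (0.811 percent higher and 1.88 percent lower). An unadjusted p under 0.05 was found for 5 of the 33, and for 2464 of the 14557 genes tested.

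The authors' deposited table sorts genes by its own comparison of KO with WT at each stage. Of the 34 genes, the authors' deposited table put 1 up and 1 down at GO1, 2 up and 1 down at GO2, 5 up and 1 down at nFGO, and 4 up and 3 down at FGO. Over all 16940 genes the authors' deposited table has 3.48 percent up and 4.08 percent down at GO1, 4.24 and 4.37 percent at GO2, 4.99 and 5.9 percent at nFGO, and 6.47 and 6.98 percent at FGO. The authors' deposited table also put Suclg2 up at nFGO and FGO, with log2 fold changes of 0.86 and 0.71, and Pdk1 up at FGO with 0.68. It put Pdk1 up at GO1 with 0.63 and Pfkl up at GO2 with 0.65, where limma called neither. Sucla2 at nFGO, called lower by limma, was sorted there as similar level, with -0.45. For Idh3g the authors' deposited table gives -0.79 at GO2, -2.24 at nFGO and -3.04 at FGO.

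Other genes of these pathways were taken from 6 lists of 79 genes in all, of which 56 were tested. In KO against WT, 1 was higher and 4 lower at GO1, 1 higher and 0 lower at GO2, 4 higher and 4 lower at nFGO, and 3 higher and 4 lower at FGO. Over all genes tested, 2.16 percent were higher and 4.47 percent lower at GO1, 2.96 and 4.68 percent at GO2, 6.77 and 9.4 percent at nFGO, and 7.67 and 10.2 percent at FGO. Among 18 tested genes of the citrate cycle and its filling reactions, Pcx, pyruvate carboxylase, had 5.73 and 6.79 RPKM in KO nFGO oocytes, against 21.1 and 18.8 RPKM in WT nFGO oocytes. It had 3.88 and 5.63 RPKM in KO FGO oocytes, against 17.03 and 14.4 RPKM in WT FGO oocytes. Both KO libraries were far below both WT libraries at each stage, with log2 fold changes of -1.53 at nFGO (adjusted p = 0.000584) and -1.55 at FGO (adjusted p = 0.000449). The FGO value was -1.66 without WT FGO replicate 2 (adjusted p = 0.00285).

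In the pentose phosphate pathway, with 9 genes tested, G6pdx, the enzyme of its first step, had 140.0 and 142 RPKM in KO nFGO oocytes, against 220.2 and 230.2 RPKM in WT nFGO oocytes. It had 153 and 170.2 RPKM in KO FGO oocytes, against 275 and 249 RPKM in WT FGO oocytes. KO was lower without overlap. G6pdx was called lower at GO1 (-0.84, adjusted p = 0.00855), nFGO (-0.67, adjusted p = 0.0102) and FGO (-0.69, adjusted p = 0.00751), and without WT FGO replicate 2 the FGO value was -0.77 (adjusted p = 0.0248). At each of these stages the call was lost without 2 of the 4 libraries, with adjusted p from 0.0506 to 0.0682. Taldo1, transaldolase, had 123 and 119 RPKM in KO FGO oocytes, against 86.1 and 78.5 RPKM in WT FGO oocytes. KO was higher without overlap, and its log2 fold change at FGO was 0.55 (adjusted p = 0.00364), or 0.48 without WT FGO replicate 2 (adjusted p = 0.0311).

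Among 4 tested genes of gluconeogenesis Fbp2, a fructose bisphosphatase, had 44.2 and 55.6 RPKM in KO nFGO oocytes, against 32.5 and 30.6 RPKM in WT nFGO oocytes. It had 45.1 and 44.0 RPKM in KO FGO oocytes, against 27.1 and 29.7 RPKM in WT FGO oocytes. KO was higher at both stages without overlap, with log2 fold changes of 0.64 (adjusted p = 0.0135) and 0.63 (adjusted p = 0.012), the second at 0.70 without WT FGO replicate 2 (adjusted p = 0.036). These calls were lost without 2 of the nFGO libraries (adjusted p from 0.0895 to 0.109) and without 3 of the FGO libraries (adjusted p from 0.0605 to 0.0727).

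The other calls from these lists were each lost with at least 1 library left out, with adjusted p up to 0.357. At GO1 Slc2a13 (an inositol transporter), Lipt1 (a lipoyltransferase) and Rpe (a pentose phosphate epimerase) were called lower, and Rpia (a pentose phosphate isomerase) higher. At GO2 Pdp1, a phosphatase that reactivates pyruvate dehydrogenase, was higher. At nFGO Slc2a13, Ldhc (a lactate dehydrogenase known from testis) and Taldo1 were higher, and Pfkfb1 (a regulator of phosphofructokinase) and Tktl1 (a transketolase-like gene) lower. At FGO Pgd (the enzyme that follows G6pdx) was higher, and Me2 (a malic enzyme) and Emb (a partner of monocarboxylate transporters) lower, and these 3 FGO calls were lost without WT FGO replicate 2 (adjusted p = 0.0539 for Pgd, 0.11 for Me2 and 0.105 for Emb).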

How the data were processed

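RNA-seq of 16 libraries was used, and the 8 ATAC-seq samples were not analysed here. The deposited RPKM per gene and library was made by the authors, per the file headers. Trim Galore 0.4.5, HISAT2 2.1.0, Cufflinks 2.2.1, Cuffnorm, DESeq 1.34.1, deepTools 3.0.2 and mm10 are named in the submitters' processing notes, with no roles. The authors' deposited table also gives, per the file headers, group means of normalized counts (unit signal), a log2 fold change and p-values per stage. Of these the fold changes and the sorting into up, down or similar level were copied, with mean counts for Gapdh and Pgk1 only. Of 16975 gene IDs, 35 were left out because each was written 32 times with 2 sets of nFGO values. Whole reads could not be recovered: 27.3 to 36.3 percent of ratios of low values lay at small whole-number ratios (tolerance 0.01 on the log2 scale), so depth and counting error are unknown.

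Values were taken as log2(RPKM + 1) and fitted in limma 3.58.1 (R 4.3.3) with 1 mean for each of 8 groups (8 residual and 4.01 prior degrees of freedom, variance trend). The fit was run on data simulated with normal errors at its own estimated spread, where 83 percent of 2-fold changes planted in KO FGO were recovered. Changes were planted only in genes averaging above about 5 RPKM. The simulation met the assumptions of the fit, so it cannot test them, and it does not cover low transcripts. Values per library are given for genes called between genotypes, the 2 strongest called genes of each WT growth comparison and isoenzyme sets, and ranges for the rest. From each other list up to 4 called genes per stage are named. The genes and lists were chosen with earlier results of these data known. Alternatives were other pseudocounts (0.1 and 5), filters, scalings, variance models and samples, a replicate block, and each library left out. Leaving out WT FGO replicate 2 together with KO nFGO replicate 2 was chosen after seeing the data. The result of 1 gene is not reported here.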

Additional observations from a re-analysis of the deposited data

Results flagged for a closer look

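The KO-WT difference itself differed between stages for 3 genes in limma's interaction tests. For Slc2a1 the difference in fully grown oocytes exceeded that in growing oocytes by 0.74 on the log2 scale (adjusted p = 0.00862), with both KO libraries above both WT libraries at nFGO and FGO. For Idh3g the same comparison gave -1.90 (adjusted p = 0.000253), with KO below WT in every library of each stage. Both calls were kept with each library left out. For Dlst the difference at GO2 exceeded that at GO1 by 0.997 (adjusted p = 0.0213), a call lost without any 1 of 5 of the 8 libraries (adjusted p from 0.0573 to 0.108). With 2 libraries a group, a single outlying library could not be looked for within a group.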

How the results depend on the processing

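Of 48 calls of single genes, none changed direction under any alternative, 32 were kept under each alternative other than leaving libraries out, and 19 with each single library left out. The counts of called genes moved more, and those over all genes tested moved as well. With libraries left out in turn they ran from 0 to 5 for KO-WT GO1 (5 without KO GO1 replicate 2, where 1 was called in full, and 0 without the other 3), from 0 to 1 for GO2, 1 to 5 for nFGO, 4 to 5 for FGO, 9 to 14 over all stages, 0 to 2 for WT GO2 against GO1, 5 to 8 for WT FGO against GO2, 0 to 0 for WT FGO against nFGO, 0 to 6 for the GO2 less GO1 difference and 2 to 3 for the fully grown less growing one. A filter of 5 RPKM in 2 libraries gave 3 at GO1, 3 at FGO, 9 over all stages and 2 for the GO2 less GO1 difference, with fewer genes tested. Rescaling to the same RPKM total gave 6 at GO2 and 4 for that difference, with 1371 and 866 calls over all genes. Quantile normalization gave 2 at GO1 and 2 for that difference, with 997 and 465 calls over all genes. Fits of only the groups compared, which hold fewer libraries, gave 0 at GO1, 1 at nFGO, 3 at FGO and 0 for that difference. Same-numbered libraries of KO and WT showed little shared deviation (r across genes of -0.00812 at GO1, -0.0187 at GO2, 0.0733 at nFGO and 0.0962 at FGO). Such values cannot decide whether the numbers pair them by origin or handling. With a replicate block the counts were 1, 2, 5 and 5 at GO1, GO2, nFGO and FGO, 12 over all stages, 6 and 10 for WT growth, and 0 and 2 for the interactions. With the block the calls of Hk2 at nFGO (adjusted p = 0.0856), Pfkm at FGO (adjusted p = 0.0511), Pfkl and Pfkm over all stages (adjusted p = 0.0733 and 0.0621), Gpi1 in WT FGO against GO2 (adjusted p = 0.0554) and Dlst in the GO2 less GO1 difference (adjusted p = 0.0543) were lost, and 1 other gene was gained at FGO. Over all genes tested, fits of only the groups compared called 16 genes at GO1 (965 in full), 291 at GO2 (1112), 1174 at nFGO (2354), 1072 at FGO (2596), 656 for WT GO2 against GO1 (1099), 53 for WT FGO against nFGO (2.69 percent of 14557 in full) and 15 for the GO2 less GO1 difference (582). The block gave 596 at GO1, 555 at GO2, 5 for the GO2 less GO1 difference and 605 for the fully grown less growing one (993 in full), and without a variance trend the GO2 less GO1 difference had 101. Without both WT FGO replicate 2 and KO nFGO replicate 2 the count over all stages was 9. With 2 libraries a group and unknown depth, small differences at a single stage may have gone undetected.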
